A study of Homo sapiens with 8 samples.

Results

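The genes described here are 10 that lie downstream of the RAS-ERK pathway: the dual-specificity phosphatases DUSP4, DUSP5 and DUSP6, the Sprouty genes SPRY1, SPRY2 and SPRY4, the Sprouty-related genes SPRED1 and SPRED2, and the PEA3-group ETS factors ETV4 and ETV5. They were chosen by symbol from the 20531 genes listed in the deposited tables, and all 10 were among the 14429 genes that reached a normalised read count of 10 in at least 1 library. Polyadenylated RNA was sequenced from 8 libraries of a pair of established HER2-positive breast carcinoma cell lines, SKBR-3 and BT474m1. Each line was given DMSO (the vehicle), 300 nM lapatinib, 300 nM JQ1, or both drugs at those doses, for 48 h in RPMI with serum. Lapatinib inhibits the kinases EGFR and HER2, and JQ1 displaces BET bromodomain proteins from acetylated chromatin. Each of the 8 groups held 1 library, so no difference below has a replicate check, no test was made, and line, culture and library cannot be told apart.

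Signalling from HER2 through RAS, RAF and MEK activates ERK, and active ERK induces genes whose products turn the pathway down. DUSP phosphatases remove the activating phosphates from ERK itself (DUSP6 mostly in the cytoplasm, DUSP4 and DUSP5 in the nucleus), while Sprouty and SPRED proteins act further up, between the receptor and RAF. ETV4 and ETV5 are transcription factors of the PEA3 group, induced by the same pathway and activators of growth and invasion genes. Levels of several of the 10 RNAs are commonly read as a measure of ERK output.

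The 250 bases before the annotated start are shown for 3 members that had a RefSeq promoter window and fell most with lapatinib in BT474m1 among the 6 such members, because ETS-family proteins bind sequences built on the letters GGAA. Capitals mark GGAA or its reverse complement TTCC. Sequences are from RefSeq on GRCh38.p14, run 5′ to 3′ on the strand of the gene, and lie on chromosome 12 (DUSP6, chr12:89352502-89352751, minus strand), chromosome 5 (SPRY4, chr5:142324248-142324497, minus strand) and chromosome 15 (SPRED1, chr15:38252586-38252835, plus strand).
DUSP6: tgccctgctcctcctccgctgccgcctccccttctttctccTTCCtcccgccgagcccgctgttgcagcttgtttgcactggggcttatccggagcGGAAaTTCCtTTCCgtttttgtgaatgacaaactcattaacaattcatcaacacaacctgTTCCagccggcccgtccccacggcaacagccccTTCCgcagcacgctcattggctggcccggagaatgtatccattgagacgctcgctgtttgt
SPRY4: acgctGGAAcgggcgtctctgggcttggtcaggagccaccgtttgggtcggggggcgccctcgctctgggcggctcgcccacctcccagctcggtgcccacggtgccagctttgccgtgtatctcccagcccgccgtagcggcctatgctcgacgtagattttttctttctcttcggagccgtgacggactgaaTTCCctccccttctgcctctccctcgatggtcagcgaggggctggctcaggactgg
SPRED1: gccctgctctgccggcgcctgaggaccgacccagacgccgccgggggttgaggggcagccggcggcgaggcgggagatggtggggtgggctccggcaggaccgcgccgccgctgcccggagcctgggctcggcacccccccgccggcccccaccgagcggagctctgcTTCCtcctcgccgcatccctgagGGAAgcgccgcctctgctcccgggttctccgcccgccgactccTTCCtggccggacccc
The DUSP6 stretch held 6 such matches, SPRED1 held 3 and SPRY4 held 2. Of the members not shown, the windows of SPRY1 held 5 and 4, those of SPRED2 4 and 5, and those of SPRY2 3, 4 and 4, so members that fell less held as many as or more than SPRED1 and SPRY4. Over 35116 promoter windows the median was 3 (interquartile range 2 to 4), 92.7% held at least 1 match, and 90.9% held fewer than DUSP6. Longer motifs were searched on both strands of the whole 300-base windows, of which the 6 members had 10. The ETS sequences CCGGAAGT (in 4.14% of all windows) and ACAGGAAG (2.99%), the cyclic AMP element TGACGTCA (1.85%), the forkhead sequences GTAAACA (3.42%) and GTCAACA (2.32%) and the E-box CACGTG (7.26%) were in none of the 10. The AP-1 sequence TGACTCA (4.95%) was in 1 window, of SPRED2. These are matches of letters, and no binding was measured.

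Values are normalised read counts, that is, reads estimated per gene and put by the authors on a common scale on which the upper quartile of every library lies near the same level. Libraries held 21420115 to 34112379 reads on genes, and 1 read was worth 0.471 to 0.766 units. Fold changes are differences of log2(value + 1), which understates the change of low genes, and a change written as N-fold is the ratio of the values themselves. A change was called at 2-fold or more, and the 95% interval beside it covers the counting of reads only (exact Clopper-Pearson), not the spread between cultures. ERBB2, which encodes HER2, stood at 94678 to 277872 in the 8 libraries. The epithelial gene CDH1 was at 2.58 to 15.1 in SKBR-3 against 19413 to 24373 in BT474m1, the leukocyte and endothelial genes PTPRC, CD3E and PECAM1 reached at most 3.38, and the epithelial keratins were high in both lines. CD68 was at 178 to 407 in SKBR-3 and VWF at up to 153 in BT474m1. VIM was at 0 to 2.06 in SKBR-3 against 204 to 657 in BT474m1, and COL1A1 at 24.1 to 124 against 337 to 1253. FN1 went the other way, at 578 to 1976 in SKBR-3 against 43.5 to 146 in BT474m1. The part of these genes in the results was not tested. In bulk RNA such as this, fewer cells with a transcript and less transcript per cell cannot be told apart.

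**Figure D1:**
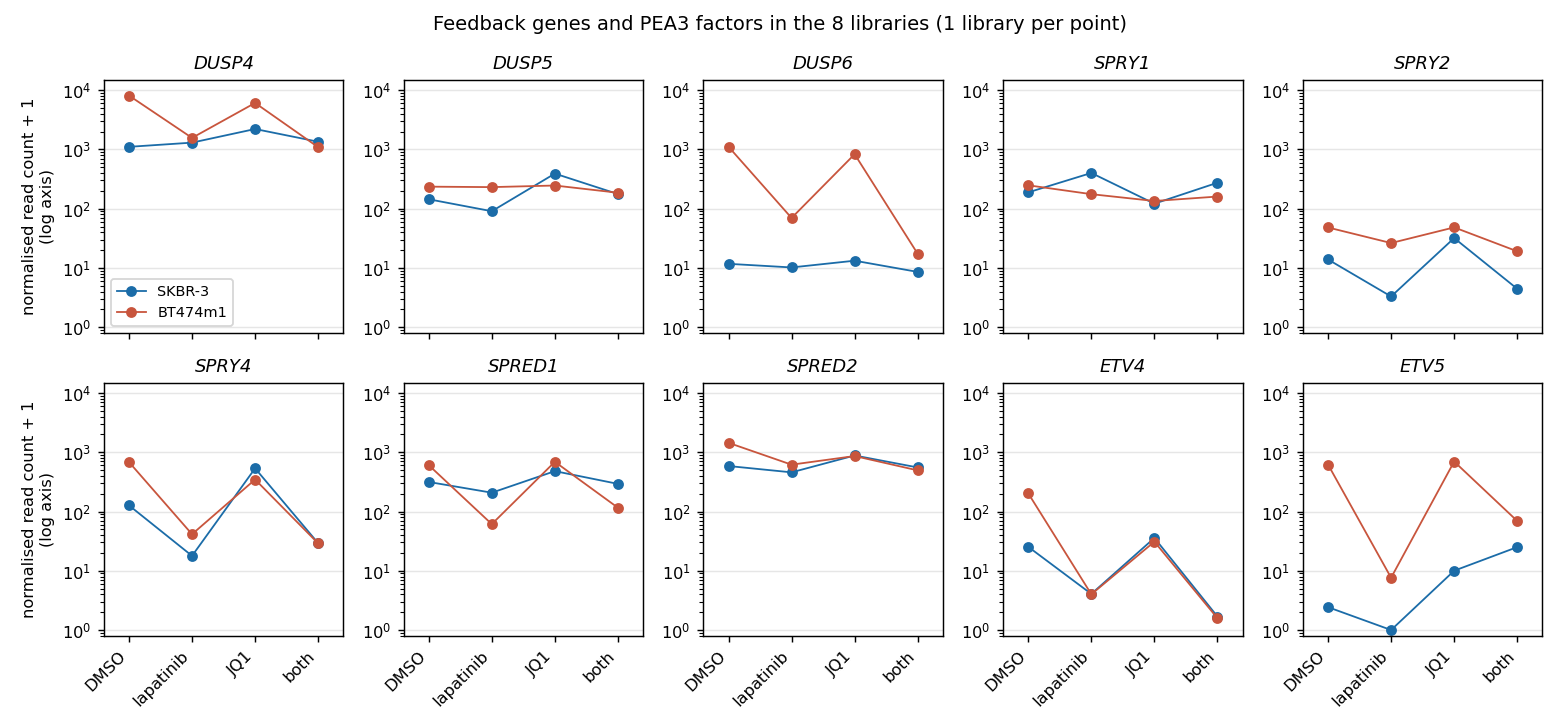
Normalised read count plus 1 (log axis) of each of the 10 genes in the 4 treatments (x axis, 1 library per point) of SKBR-3 (blue) and BT474m1 (red). DUSP6 and ETV5 were far higher in BT474m1 with DMSO, and in that line ETV4, ETV5, DUSP6, SPRY4 and SPRED1 were at least 10-fold lower with lapatinib.

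Among the 3 phosphatase genes chosen, DUSP4 (Entrez 1846), a nuclear ERK phosphatase, had the highest values in every library. In SKBR-3 it stood at 1105 with DMSO, 1301 after lapatinib, 2210.1 after JQ1 and 1347 after both drugs. In BT474m1 the values were 8114, 1564, 6085 and 1089.8 in the same order. DUSP4 was therefore highest in the 2 BT474m1 libraries that had no lapatinib, while the 2 that had it lay near the SKBR-3 values. DUSP6 (1848), the cytoplasmic ERK phosphatase, was scarce in SKBR-3, at 10.7 with DMSO, 9.19 after lapatinib, 12.2 after JQ1 and 7.57 after both. In BT474m1 it was at 1109.9 with DMSO, 68.7 after lapatinib, 829 after JQ1 and 16.3 after both. Every BT474m1 library exceeded every SKBR-3 library for DUSP6, although BT474m1 with both drugs (28 reads) lay close to SKBR-3 with JQ1 (19 reads). DUSP5 (1847), a nuclear ERK phosphatase, varied in SKBR-3, from 89.6 with lapatinib and 143 with DMSO to 175 with both and 389.8 with JQ1. In BT474m1 it lay between 185 (both) and 245 (JQ1), with 234 for DMSO and 230.1 for lapatinib, a range of 1.33-fold.

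Of the Sprouty genes, SPRY4 (81848) covered the widest range in BT474m1. It was at 126 with DMSO, 16.8 after lapatinib, 534 after JQ1 and 28.2 after both in SKBR-3. In BT474m1 it was at 683, 40.4, 346 and 28.0. The 4 libraries with lapatinib, in either line, were the 4 lowest for SPRY4. SPRY2 (10253), the paralogue best known as a brake on growth factor receptors, was low throughout. Its SKBR-3 values were 12.9 with DMSO, 2.30 after lapatinib (3 reads), 30.9 after JQ1 and 3.44 after both (5 reads). Its BT474m1 values were 47.1, 25.3, 47.3 and 18.1. Within each line the 2 libraries with lapatinib were below the 2 without it. SPRY1 (10252) had another order. In SKBR-3 it was highest with lapatinib (399.7) and with both drugs (273), and lower with DMSO (188) and JQ1 (120.5), whereas in BT474m1 DMSO was highest at 247, followed by 175 with lapatinib, 159 with both and 134 with JQ1.

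The SPRED genes encode membrane proteins that hold neurofibromin near RAS. SPRED1 (161742) was at 314 with DMSO, 207 after lapatinib, 479 after JQ1 and 292 after both in SKBR-3. In BT474m1 it was at 605, 60.2, 689 and 115. The 2 BT474m1 libraries with lapatinib were the lowest of the 8. SPRED2 (200734) moved less, at 585, 457, 881 and 553 in SKBR-3. It was at 1443, 616, 862 and 493 in BT474m1. There the DMSO library stood apart at the top and the library with both drugs was lowest.

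The PEA3 factors spanned the largest ranges. ETV4 (2118) had values of 24.3 with DMSO, 3.06 after lapatinib, 34.8 after JQ1 and 0.688 after both in SKBR-3. In BT474m1 these were 201, 3.01, 29.95 and 0.583. Lapatinib libraries of both lines thus held 4 or 5 ETV4 reads, and the libraries with both drugs held 1 read each. ETV5 (2119) was nearly absent from SKBR-3 with DMSO (1.43, or 2 reads) and at 0 with lapatinib, which allows up to 2.30 units (3 reads). The JQ1 library had 9.02 and the combination 24.1. BT474m1 held far more ETV5, at 619 with DMSO and 696 with JQ1, against 6.63 with lapatinib and 68.2 with both. The order of treatments differed between these paralogues in both lines: both drugs together gave the lowest ETV4 of each line and the highest ETV5 of SKBR-3. ETV4 overlaps DHX8 on the opposite strand, and whether reads were counted by strand could not be settled from the labels or the study's methods. DHX8 stayed at 609 to 757 in the 8 libraries and did not follow ETV4, while DGKG, which overlaps ETV5, was at 0 to 2.33. Antisense transcripts are also annotated over SPRY4 and ETV5, and reads from them cannot be told apart if strand was not used. Between neighbouring treatments in these orders, the counting interval included no difference for 11 of 30 pairs in SKBR-3 and 7 of 30 in BT474m1.

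Levels of different genes were compared per kilobase of the MANE Select transcript (GENCODE v44). With DMSO, DUSP4 led in both lines, at 199 units per kb in SKBR-3 and 1461 in BT474m1, and SPRED2 came next, at 129 and 319. In SKBR-3, ETV5 (0.351), DUSP6 (2.96) and SPRY2 (5.64) closed the order. In BT474m1 DUSP6 (306 per kb) and ETV5 (152) came after these, and SPRY2 was last at 20.6. With both drugs, ETV4 was last in each line, at 0.295 and 0.250 units per kb.

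The first comparison asks how the lines differed before any drug. In DMSO, 7 of the 10 genes were at least 2-fold higher in BT474m1 and 0 were lower, where 26.8% of all genes kept were higher and 15.6% lower. The median log2 difference was 2.11 over the 10 and 0.21 over all genes. DUSP6 was 103-fold higher (95% interval 62.5 to 185), and ETV5 was 432-fold higher with a wide interval of 119 to 3572, as SKBR-3 gave 2 reads. ETV4 was 8.27-fold higher (5.83 to 12.1), and DUSP4 (log2 2.88), SPRY4 (2.43), SPRY2 (1.79) and SPRED2 (1.30) were higher by less. SPRED1 (0.94), DUSP5 (0.71) and SPRY1 (0.40) were under 2-fold. The hormone receptor genes ESR1 and PGR also separated the lines, with a summed level of 2.58 to 19.9 in SKBR-3 and 441 to 14293 in BT474m1, and their part in these differences was not tested.

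Lapatinib against DMSO asks how these genes differed after 48 h of the HER2 and EGFR inhibitor. The activity of these kinases was not measured in these libraries. In BT474m1, 7 of 10 fell at least 2-fold and 0 rose, where 8.06% of all genes fell and 14.0% rose, and the median log2 fold change was -2.84 against 0.07 over all genes. In SKBR-3, 4 of 10 fell and 1 rose, where 9.44% fell and 11.1% rose, with medians of -0.64 and 0.05. One of those 4, ETV5, had 2 reads with DMSO and 0 with lapatinib, so no fold is given for it, and 3 fell with an interval that excluded no change. With a pseudocount of 10, 2 of 10 fell in SKBR-3, as SPRY2 (-0.90) and ETV5 (-0.19) no longer passed 2-fold. Marker genes moved with lapatinib as well. The leukocyte marker CD68 rose in both lines (1.19 and 1.17), as did ESR1 (1.75, from 6 to 22 reads, and 1.12), whereas PTPRC and CD3E were at 2.86 or less in these 4 libraries. In SKBR-3 ERBB2 rose by 1.30 and the collagen gene COL1A1 fell (-1.79), while in BT474m1 ERBB2 was at 0.31, PGR rose by 3.86, VIM rose by 1.68 and VWF fell (-2.28). None of the 5 luminal epithelial markers passed 2-fold in either line, and the part of these genes in the result was not tested.

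The largest falls in BT474m1 were in the PEA3 factors. ETV5 fell 93.3-fold (52.0 to 187) and ETV4 66.8-fold (28.4 to 207), and only 4 and 16 of the 14429 genes had a lower log2 fold change. SPRY4 fell 16.9-fold (13.2 to 21.9) and DUSP6 16.2-fold (13.4 to 19.7). SPRED1 followed at 10.0-fold (8.19 to 12.4), then DUSP4 at 5.19-fold (4.98 to 5.41) and SPRED2 at 2.34-fold (2.18 to 2.52). Each family therefore held members that fell, but the Sprouty genes did so unequally. SPRY2 had a log2 fold change of -0.87 (-1.45 to -0.36) and SPRY1 of -0.50 (-0.71 to -0.29), both short of 2-fold. DUSP5 was at -0.03 (-0.22 to 0.17).

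In SKBR-3, SPRY4 fell 7.48-fold (4.79 to 12.2), ETV4 7.95-fold (2.83 to 30.8) and SPRY2 5.61-fold (1.64 to 29.7), the last 2 on 4 and 3 reads with lapatinib. SPRY1 rose, by 1.09 on the log2 scale (0.87 to 1.31), which is the direction opposite to BT474m1. DUSP4 also differed between the lines, at 0.24 (0.14 to 0.34) in SKBR-3 against -2.37 (-2.44 to -2.32). SPRED1 (-0.60), SPRED2 (-0.35) and DUSP5 (-0.67) were lower by less than 2-fold. For DUSP6 the interval was -1.45 to 0.97, which includes both a 2-fold fall and no change, from 15 and 12 reads. SPRY4 and ETV4 were thus the members that fell at least 2-fold in both lines with intervals excluding no change.

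**Figure D2:**
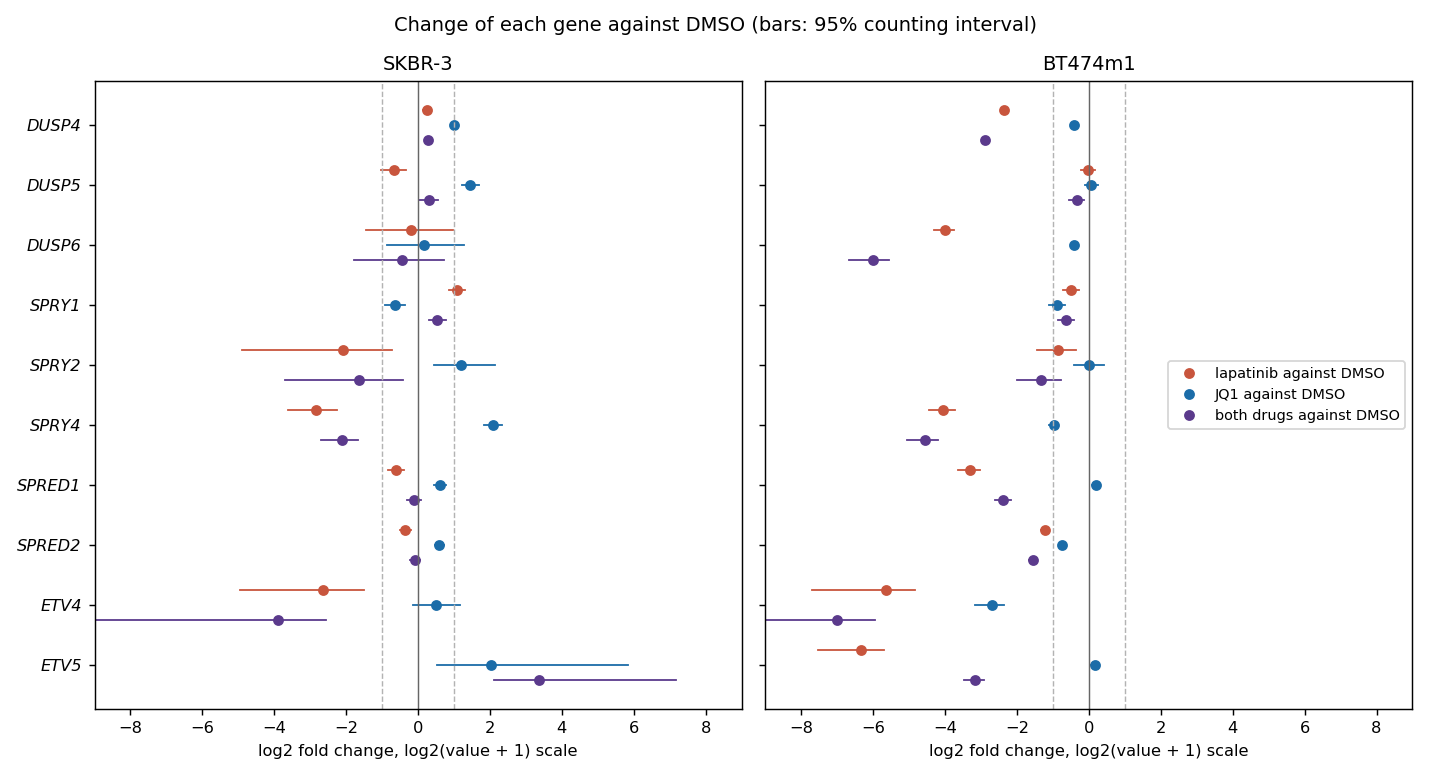
Log2 fold change against DMSO (x axis, log2(value + 1) scale) of each gene with lapatinib (red), JQ1 (blue) and both drugs (purple), 1 library per group, with SKBR-3 on the left and BT474m1 on the right. Bars are 95% counting intervals, clipped at the axis, dashed lines mark 2-fold, and ETV5 with lapatinib in SKBR-3 is left out (2 and 0 reads); lapatinib points sit left of the lower dashed line for 7 genes in BT474m1, and JQ1 points at or right of the upper one for 5 in SKBR-3.

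JQ1 against DMSO asks how these genes differed after JQ1 alone, and the lines differed. In SKBR-3, 5 of 10 genes rose and 0 fell, where 3.75% of all genes rose and 11.8% fell, with a median log2 fold change of 0.80 against -0.08. With a pseudocount of 10, 2 of 10 rose, since DUSP4 (0.99), SPRY2 (0.84) and ETV5 (0.73) no longer passed 2-fold. SPRY4 rose by 2.08 (1.85 to 2.33), DUSP5 by 1.44 (1.21 to 1.68) and SPRY2 by 1.20 (0.46 to 2.13). DUSP4 was 2.001-fold higher (1.88 to 2.13), on the threshold, and its log2 fold change was 0.85 when libraries were scaled to equal totals. ETV5 rose 6.30-fold (1.45 to 57.1) from 2 reads. SPRED1 (0.61) and SPRED2 (0.59) were higher by less than 2-fold, while SPRY1 was lower, at -0.63 (-0.92 to -0.36). In the same SKBR-3 library, 3 of 5 luminal epithelial markers (KRT8, KRT18 and KRT19) rose by 1.47 to 1.84, the 5 summed to 147690 to 507031 over the 4 libraries of the line, and the 20 most abundant genes took 14.0% of reads. VWF (-3.03 in SKBR-3 and -3.67 in BT474m1) and the fibronectin gene FN1 (-1.03 and -1.72) fell with JQ1 in both lines; their part in the results was not tested.

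In BT474m1 with JQ1, 1 of 10 fell and 0 rose, where 11.8% of all genes fell and 4.81% rose, and the median was -0.42 against -0.06. The gene that fell was ETV4, 6.72-fold (5.14 to 8.92). SPRY4 stopped just short of 2-fold at -0.98 (-1.11 to -0.85), the opposite of its direction in SKBR-3, and passed it at -1.004 with libraries scaled to equal totals, while DUSP4 was at -0.42 (-0.45 to -0.38). SPRY1 (-0.88) and SPRED2 (-0.74) were lower by less than 2-fold. ETV5 (0.17), SPRED1 (0.19), DUSP5 (0.06) and SPRY2 (0.01) lay close to the DMSO level. The marker genes ESR1 (-2.14), PGR (-1.77) and COL1A1 (-1.67) fell in the same library, beside VWF and FN1, and their part was not tested. The PEA3 paralogues thus separated under JQ1 in BT474m1, where ETV4 was at 29.95 against 201 and ETV5 at 696 against 619.

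Both drugs against DMSO gave 8 of 10 genes lowered and 0 raised in BT474m1, where 15.3% of all genes were lowered and 14.2% raised. In SKBR-3, 3 were lowered and 1 raised, where 20.8% were lowered and 10.8% raised. ETV4 was lower in both lines, by 345-fold in BT474m1 (61.6 to 13669) and 35.4-fold in SKBR-3 (5.94 to 1438), the width of both intervals coming from 1 read with both drugs. DUSP6 in BT474m1 was 68.0-fold lower (46.9 to 103). SPRY4 was 24.4-fold lower in BT474m1 (18.3 to 33.2) and 4.47-fold lower in SKBR-3 (3.16 to 6.44). SPRY2 was lower in each line, by 2.61-fold (1.73 to 4.04) and 3.75-fold (1.34 to 12.9). SPRED1 was 5.27-fold lower (4.53 to 6.15) and SPRED2 2.92-fold lower (2.71 to 3.16) in BT474m1, while their log2 fold changes in SKBR-3 were -0.11 and -0.08. ETV5 went in opposite directions: it was 9.07-fold lower in BT474m1 (7.50 to 11.1) and 16.8-fold higher in SKBR-3 (4.32 to 144), where only 45 of 14429 genes had a higher log2 fold change. DUSP4 was likewise lower by 7.45-fold in BT474m1 (7.10 to 7.81), while its log2 fold change in SKBR-3 was 0.29 (0.19 to 0.38). With a pseudocount of 10, SPRY2 in SKBR-3 (-0.77) no longer passed 2-fold. In that setting ETV5 in SKBR-3, which had 2 reads with DMSO, was at 1.58 instead of 3.37, and ETV4 there at -1.68 instead of -3.91. Of the marker genes, COL1A1 fell in both lines (-2.32 and -1.89). VIM (1.62 and 1.46) and PGR (-1.28 and -1.56) also passed 2-fold in each line, although SKBR-3 held at most 3 reads of VIM and 2 of PGR in these libraries. In SKBR-3, ERBB2 (1.30) and 3 of 5 luminal epithelial markers (KRT8 by 1.05, KRT18 by 1.09 and CDH1, on 6 and 22 reads, by 1.61) rose, and in BT474m1 VWF (-4.62) and ESR1 (-1.75) fell. The part of these genes was not tested.

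Adding JQ1 to lapatinib asks whether the second drug moved these genes beyond lapatinib. In SKBR-3, 1 of 10 rose and 1 fell, where 3.22% of all genes rose and 16.2% fell. In BT474m1, 1 rose and 2 fell, where 5.2% rose and 12.5% fell. The gene that rose in each line was ETV5. It was at least 10.5-fold higher in SKBR-3, where lapatinib alone gave 0 reads (counted as the floor of 3 reads) and both drugs gave 35. That bound leaves out the counting error of the 35 reads, and the 95% interval of the ratio, which includes it, began at 8.08. In BT474m1 ETV5 was 10.3-fold higher (5.55 to 21.2), from 11 to 117 reads. DUSP6 fell a further 4.21-fold in BT474m1 (2.76 to 6.61). ETV4 was the other gene past 2-fold downward in each line, but on 1 read, with ratio intervals from 0.441 to 219-fold lower in SKBR-3 and from 0.578 to 244-fold lower in BT474m1 that include no change. With a pseudocount of 10 its log2 fold changes were -0.29 and -0.30, short of 2-fold. SPRED1 (0.49 and 0.92) and, in SKBR-3, DUSP5 (0.96, 0.65 to 1.30) were higher with JQ1 added by less than 2-fold, though DUSP5 was at 1.12 when libraries were scaled by the median of ratios. Among the marker genes, ESR1 (-2.25 in SKBR-3 and -2.87 in BT474m1), PGR (-2.02, from 4 to 0 reads, and -5.42) and VWF (-1.01 and -2.34) fell in both lines. In SKBR-3, 3 of 5 luminal epithelial markers rose (KRT8 by 1.11, KRT18 by 1.06 and CDH1, on 8 and 22 reads, by 1.18) and FN1 fell (-1.29), and VIM went from 0 to 3 reads. COL1A1 fell in BT474m1 (-1.84), and the part of these genes was not tested.

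Adding lapatinib to JQ1 gave 7 of 10 genes lowered and 0 raised in BT474m1, where 7.27% of all genes were lowered and 12.4% raised. In SKBR-3, 4 were lowered and 2 raised, where 12.3% were lowered and 9.79% raised. DUSP6 was 50.8-fold lower in BT474m1 (35.0 to 76.7), and 4 genes of 14429 had a lower log2 fold change. ETV5 was 10.2-fold lower there (8.45 to 12.4) and 2.67-fold higher in SKBR-3 (1.40 to 5.37), where its log2 fold change was 0.84 with a pseudocount of 10. SPRY4 fell in both lines, 18.9-fold in SKBR-3 (13.8 to 26.6) and 12.4-fold in BT474m1 (9.22 to 16.9), and the SKBR-3 level that JQ1 had raised to 534 came down to 28.2. DUSP4 fell 5.58-fold (5.32 to 5.86) and SPRED1 6.001-fold (5.17 to 7.001) in BT474m1. SPRY2 fell 8.99-fold in SKBR-3 (3.60 to 28.9) and 2.62-fold in BT474m1 (1.73 to 4.06), and ETV4 fell 50.6-fold (8.70 to 2034) and 51.4-fold (8.88 to 2061), to 1 read in each. DUSP5 fell 2.22-fold in SKBR-3 (1.92 to 2.58). SPRY1 rose 2.27-fold in SKBR-3 (1.90 to 2.71), as it had with lapatinib alone. Of the marker genes, VIM (1.13) and FN1 (1.02) rose in BT474m1. In SKBR-3 COL1A1 fell (-1.71), while CDH1 (2.17, from 4 to 22 reads) and VWF (2.11, from 3 to 17 reads) rose, and the part of these genes was not tested. These comparisons share libraries with those against DMSO and are not independent of them.

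**Figure D3:**
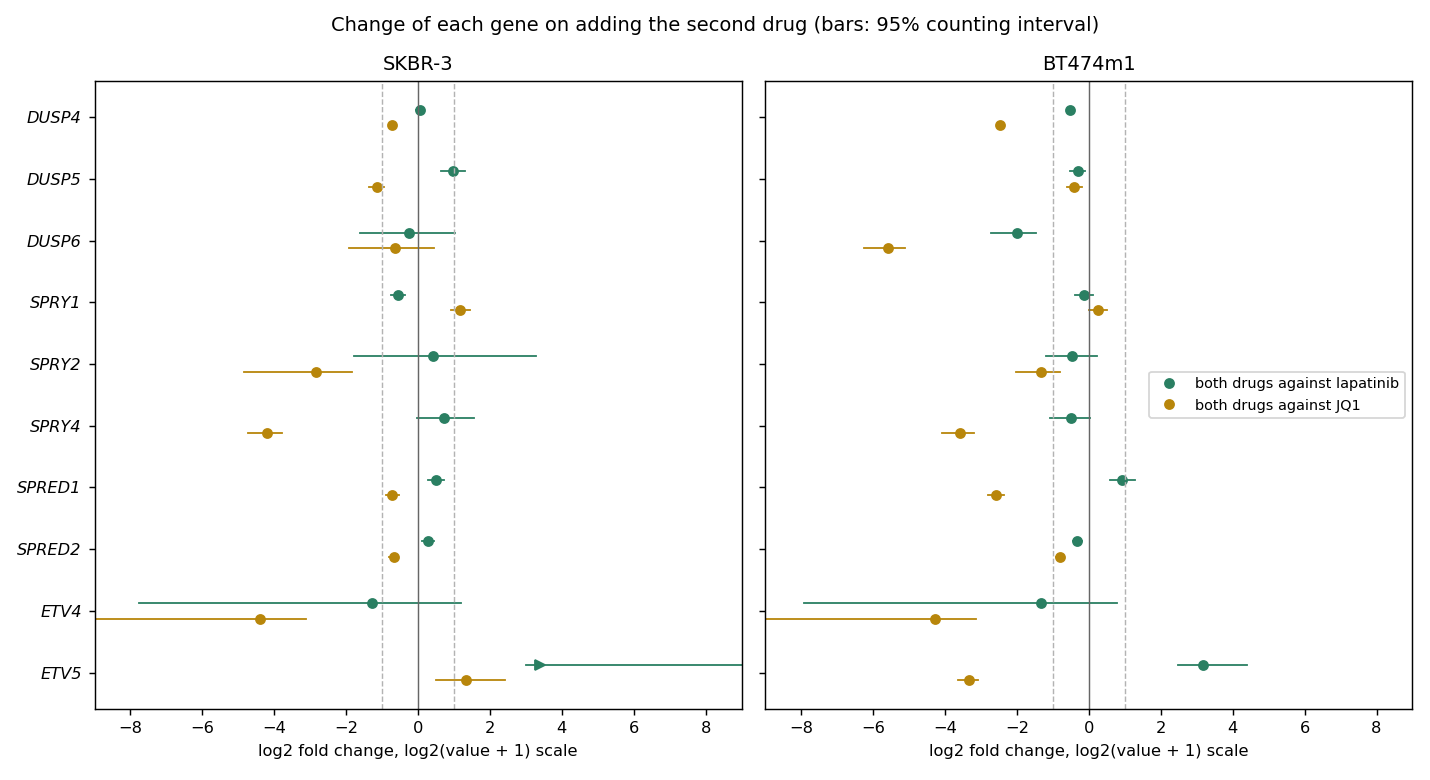
Log2 fold change (x axis, log2(value + 1) scale) of each gene with both drugs against lapatinib alone (green) and against JQ1 alone (gold), 1 library per group. Bars are 95% counting intervals, clipped at the axis, and dashed lines mark 2-fold; the triangle is the lower bound for ETV5 in SKBR-3, and ETV5 is the gene that lies right of the upper dashed line against lapatinib in both lines.

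For each gene the log2 change under the combination was compared with what the single-drug log2 changes add up to, with a 95% interval from the counting errors of the 4 libraries (normal approximation). In BT474m1 ETV5 was higher than that sum by 3.01 (2.11 to 3.91), or by 2.07 with a pseudocount of 10, and DUSP6 was lower than it by a log2 difference of -1.59 (-2.19 to -0.98). SPRY1 (0.75) and SPRED1 (0.73) were above the sum by less than 1. In SKBR-3 SPRY4 differed by -1.36 (-2.15 to -0.58) and DUSP4 by -0.95 (-1.08 to -0.82). ETV4 differed by -1.77 in SKBR-3 (-4.99 to 1.46) and by 1.37 in BT474m1 (-1.75 to 4.49), but on 1 read with both drugs, and both intervals include 0. With a pseudocount of 10 these were -0.67 and 2.11. Neither ETV4 value in BT474m1 could have been 0 or lower, as the level expected from the single drugs lay below the pseudocount itself. No departure can therefore be read from them. ETV5 in SKBR-3 was at 2.61, with no interval because 1 library held 0 reads, and this value was 1.03 with a pseudocount of 10. Over all genes the medians were -0.06 (SKBR-3) and 0.01 (BT474m1), with 3.90% and 4.72% of genes at 1 or more and 7.58% and 4.73% at -1 or less.

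Other genes of the pathway, in lists chosen with earlier results of these data known, were read beside the 10 for lapatinib against DMSO, where 11.1% of all genes rose and 9.44% fell in SKBR-3 and 14.0% rose and 8.06% fell in BT474m1. Of 20 genes of the RAS-ERK cascade itself (the RAS, RAF, MEK, ERK and RSK genes and adaptors), 2 rose and 1 fell in SKBR-3 and 1 rose and 0 fell in BT474m1, with list medians of 0.15 and -0.09, shares near or below those over all genes. The genes past 2-fold were SOS2, an activator of RAS (1.23), RPS6KA2, an RSK kinase (1.13), and HRAS (-1.11) in SKBR-3, and the scaffold gene KSR1 (1.02) in BT474m1. Of 9 other DUSP genes, 2 fell in SKBR-3 and 0 in BT474m1, with medians of -0.20 and 0.05. Those that fell were the ERK phosphatase genes DUSP9 (-2.14) and DUSP7 (-1.05). Of 9 other RAS-RAF brakes, 1 rose in each line, although SPRY3 in SKBR-3 did so on 2 and 0 reads. Of 7 other ERK output genes, FOSL1 was under the filter on low values; of the 6 kept, 3 fell in SKBR-3 (median -1.39), while in BT474m1 2 fell and 1 rose (median -0.93). Of 14 other ETS factors, 3 rose and 1 fell in SKBR-3 and 0 rose and 1 fell in BT474m1.

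The genes of these lists that fell with lapatinib in both lines were ETV1 and EPHA2. ETV1, the remaining PEA3-group factor, stood at 22.9 with DMSO, 0.766 after lapatinib, 68.3 after JQ1 and 3.44 after both in SKBR-3, and at 52.3, 0, 31.9 and 1.75 in BT474m1. It was at least 29.0-fold lower with lapatinib in BT474m1, where 0 reads were left (again at the floor of 3 reads; the 95% interval began at 23.2), and its SKBR-3 lapatinib value was 1 read. EPHA2, a receptor kinase induced by ERK, had log2 fold changes of -2.45 in SKBR-3 and -2.04 in BT474m1. CCND1, which encodes cyclin D1, fell with both drugs, with log2 fold changes of -2.41 in SKBR-3 and -3.17 in BT474m1, and ELK3, an ETS factor of the ternary complex group, fell likewise (-1.72 and -2.74). RPS6KA2 rose with both drugs by 2.30 and 1.57, the epithelial ETS factor ELF3 by 1.96 and 1.56, and the phosphatase gene DUSP10 by 1.59 and 1.30. With JQ1 alone RPS6KA2 rose in both lines, by 1.53 and 1.28, while ELK3 (-1.45 and -2.54) and the epithelial ETS factor EHF (-1.62 and -2.72) fell. DUSP2 was also lower past 2-fold in each line with JQ1, with both drugs, and with both against lapatinib, but SKBR-3 held at most 3 of its reads in any library.

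With JQ1 added to lapatinib, the immediate early gene EGR1 rose in both lines, by 3.29 and 1.01, as did RPS6KA2, by 1.17 and 1.31, and ELK3 fell (-1.13 and -2.12). ETV1 had a log2 fold change of 1.33 in SKBR-3, from 1 to 5 reads, and went from 0 to 3 reads in BT474m1, and SPRY3 went from 2 to 0 reads in SKBR-3 with -1.86 in BT474m1. With lapatinib added to JQ1, CCND1 (-3.25 and -2.34), EPHA2 (-3.77 and -2.86), PHLDA1 (-1.70 and -1.01) and ETV1 (-3.96 and -3.58) fell in both lines. ETS1 did so too, at -2.05 in SKBR-3 and at least 3.6-fold lower in BT474m1, where no read was left (floor of 3 reads; the 95% interval began at 2.53).

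**Figure D4:**
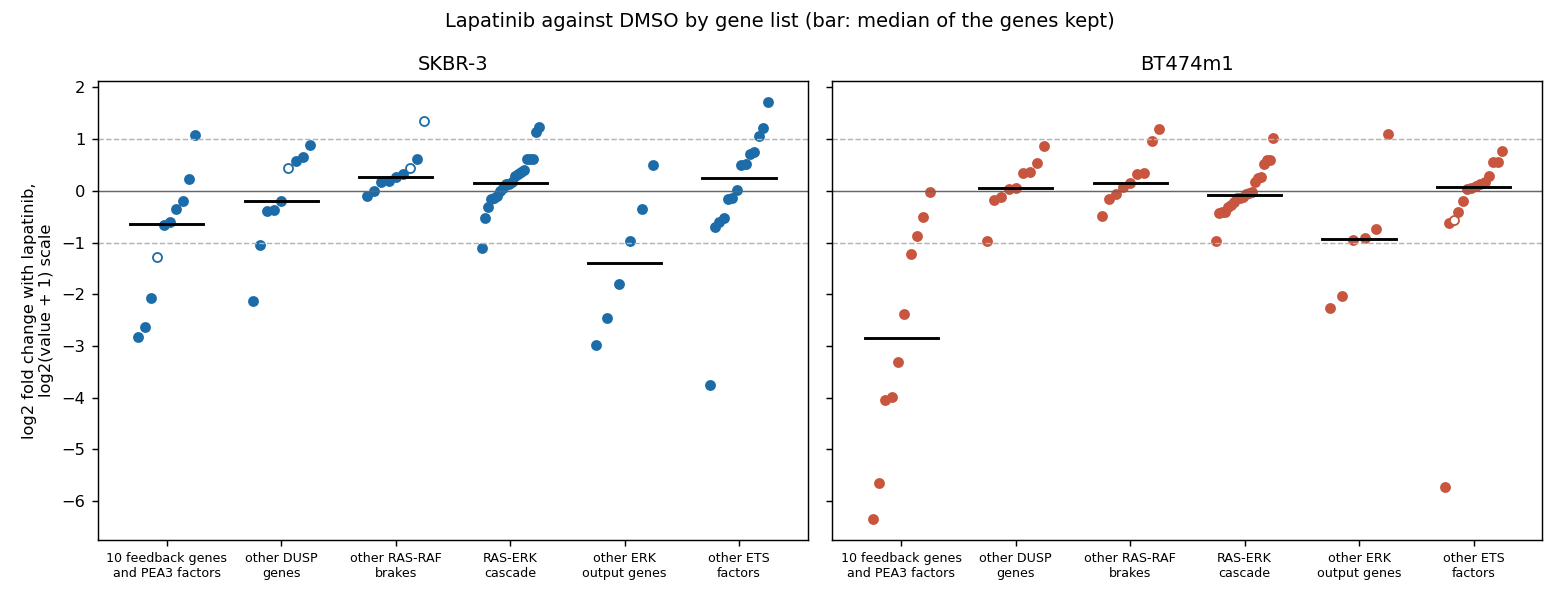
Log2 fold change with lapatinib (y axis, log2(value + 1) scale) for the 10 genes and 5 pathway lists, 1 point per gene kept, with a black bar at each list's median, for SKBR-3 (left) and BT474m1 (right). Open points had 3 or fewer reads in both libraries; the median of the 10 was -2.84 in BT474m1, against -0.93 for the other ERK output genes and between -0.09 and 0.14 for the remaining lists.

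For the member of each family with the highest mean value, the 3 genes with the most similar pattern were taken by Pearson r of log2(value + 1), centred within line, over the 8 libraries and about 9840 genes that reached 100 in each line. These were PFKL (0.996), EPN1 (0.981) and BRCC3 (0.963) for DUSP4, and CDK12 (0.996), YEATS4 (0.981) and PHRF1 (0.980) for SPRY4. For SPRED2 they were ASS1 (0.985), ABHD5 (0.969) and TFG (0.965), and for ETV5 ZNF180 (0.989), EIF5 (0.979) and GDAP2 (0.977). The likeness is of shape, not size. PFKL stood at 3233 with DMSO and 2511 with lapatinib in BT474m1, where DUSP4 fell from 8114 to 1564, and ZNF180 at 348 and 185, where ETV5 fell from 619 to 6.63. The points share 8 libraries and their scaling, and each gene is the best of all those ranked.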

How the data were processed

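RNA-seq of 8 libraries (2 lines, 4 treatments, 1 library per group) was used as deposited. The values are a signal that the authors made from RSEM gene estimates by scaling each library to a common upper quartile; the labels also name Picard 1.88, SAMtools 1.2, R 3.2.2 and the build hg19. The study's methods name instead STAR, Salmon and hg38 for its RNA-seq, so the aligner and build behind these files could not be settled. The methods name a stranded library kit, the labels both a stranded and an unstranded one, and the strand setting in counting was not given in the sources used here. Groups follow the sample titles. The 10 genes and all lists were chosen with earlier results of these data known.

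Reads were recovered from the step of 1 read: 85.0% to 86.4% of values above 0 were whole within 0.05 reads, as were 80 of 80 values of the 10 genes. Genes at 10 or more in at least 1 library were kept (14429; 6102 were left out). Fold changes are differences of log2(value + 1), called at 2-fold or more. Intervals are 95% exact Clopper-Pearson intervals on the 2 read counts, and a count of 0 was bounded at 3 reads. No test was made, as groups held single libraries. All 10 genes were named, with genes of the pathway lists past 2-fold in one direction in both lines and the 3 genes most like the most abundant member of each family. The GGAA search was added after the longer motifs had been searched. The calculations were tested on simulated data (Python 3.11.15, numpy 2.4.6, pandas 2.3.3, scipy 1.17.1, matplotlib 3.10.9). Alternatives were another pseudocount, other scalings, filters and thresholds.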

Additional observations from a re-analysis of the deposited data

Results flagged for a closer look

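In 7 instances a gene moved in opposite directions in the lines under the same contrast, with counting intervals on either side of 0 and a change of at least 2-fold in 1 line or both. Each line had 1 library per group, so these differences between lines were not tested. The share of all genes that meet the same rule is not given here, so whether 7 is unusual cannot be said. With lapatinib, DUSP4 had a log2 fold change of 0.24 in SKBR-3 and -2.37 in BT474m1, and SPRY1 had 1.09 and -0.50. With JQ1, DUSP4 had 1.00002 in SKBR-3 and -0.42 in BT474m1, and SPRY4 had 2.08 and -0.98. With both drugs against DMSO, DUSP4 had 0.29 in SKBR-3 and -2.90 in BT474m1. ETV5 had 3.37 and -3.16 in that contrast, and 1.32 and -3.33 with both drugs against JQ1. The SKBR-3 value of ETV5 rests on 2 reads with DMSO, 14 with JQ1 and 35 with both drugs.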

How the results depend on the processing

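Of 110 fold changes of the 10 genes, 55 were called. A pseudocount of 10 kept 46 of these, scaling by the median of ratios kept 55 and added 1, and scaling to equal totals kept 54 and added 1. No called fold change reversed sign under these. These counts of the 10 moved by more than 1.5 times, with the reported count given after "instead of". With a pseudocount of 10, lapatinib against DMSO lowered 2 instead of 4 genes in SKBR-3, JQ1 against DMSO raised 2 instead of 5 there, both drugs against lapatinib lowered 0 instead of 1 in SKBR-3 and 1 instead of 2 in BT474m1, and both drugs against JQ1 raised 1 instead of 2 in SKBR-3. With the median of ratios, both drugs against lapatinib raised 2 instead of 1 in SKBR-3. With equal totals, which shifted JQ1 against DMSO in SKBR-3 by 0.146 (log2), JQ1 lowered 2 instead of 1 in BT474m1. At 1.5-fold, JQ1 against DMSO lowered 1 instead of 0 in SKBR-3 and 4 instead of 1 in BT474m1, both drugs against lapatinib raised 3 instead of 1 and 2 instead of 1, and both drugs against JQ1 lowered 8 instead of 4 in SKBR-3. Requiring the interval to exclude no change left 0 instead of 1 (SKBR-3) and 1 instead of 2 (BT474m1) lowered with both drugs against lapatinib. These moves follow from the construction of each setting, since low counts and genes near 2-fold cross the threshold. Other counts of the 10 moved by less. With a pseudocount of 10, both drugs against DMSO lowered 2 instead of 3 in SKBR-3, and with equal totals JQ1 raised 4 instead of 5 there. At 1.5-fold, lapatinib lowered 6 instead of 4 in SKBR-3 and 8 instead of 7 in BT474m1, JQ1 raised 7 instead of 5 in SKBR-3, both drugs lowered 9 instead of 8 against DMSO and 8 instead of 7 against JQ1 in BT474m1, and 9 instead of 7 genes were higher in BT474m1 with DMSO. Requiring the interval to exclude no change left 3 instead of 4 lowered with lapatinib in SKBR-3. A filter at 100 took 1 gene from each of 7 counts. Over all genes, 8 of 22 counts moved by more than 1.5 times with a pseudocount of 10 and 11 of 22 with a filter at 100, for example genes raised by JQ1 in SKBR-3 (541 as reported, 312 and 339) and by both drugs against lapatinib there (465, 240 and 302).

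No paired analysis within a line was possible because no group was replicated, and leaving out a library would leave a group empty. A fit with the lines as blocks, which takes the 2 lines as replicates of each treatment, is possible with these libraries but was not run. Intervals cover counting error only. ETV4, ETV5, SPRY2 and DUSP6 in SKBR-3 rest on few reads, so folds there are loosely bounded.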
